A study of Caenorhabditis elegans with 2 samples.

Results

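The chaperonin CCT, also called TRiC, is the large ring-shaped complex of the cytosol in which actin, tubulin and other newly made proteins fold. Each ring holds one copy of each of 8 related subunits, and in the nematode Caenorhabditis elegans these are encoded by cct-1 to cct-8 (subunits alpha, beta, gamma, delta, epsilon, zeta, eta and theta in that order). Prefoldin delivers unfolded actin and tubulin to the chaperonin, and the HSP70 and HSP90 chaperones act beside it on a wider set of proteins. The 8 genes were taken by name from the Ensembl WBcel235 annotation, and all 8 were found among its 19973 protein-coding genes on the nuclear chromosomes.

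The study mapped, by chromatin immunoprecipitation and sequencing (ChIP-seq), where NHR-19, a nuclear hormone receptor, was found on the genome. Both libraries came from whole L1 larvae of strain OP791, starved after bleaching and aged 6 h. The worms carried the integrated transgene wgIs791, which expresses nhr-19::TY1 EGFP 3xFLAG from a fosmid together with unc-119(+), in an unc-119 (tm4063) mutant. There was 1 group of 2 biological replicates and no untagged or otherwise treated group, and the precipitation used an anti-GFP antibody, although the labels elsewhere give nhr-19 as the antibody target. Whole worms were used, so a site cannot be placed in a tissue. Peak lists hold no read counts, so library depth is unknown.

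A site is a peak summit of the list called from both replicates, with summits within 200 bp merged into the strongest. This gave 4530 sites. A site was given to a gene when its summit lay between 1000 bp upstream and 500 bp downstream of the annotated 5′ end of the gene. Peak signal was taken as the authors gave it, on a scale that is not stated. It was used to rank peaks within a list, and for medians, a ratio and log2 distances between sites of the same lists. Values of different lists are not compared as folds. At the tagged gene itself, nhr-19, there were 9 sites, the strongest with a signal of 3268 and rank 31, in worms that also carry that gene on the transgene.

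Of the 8 CCT genes, 5 had a site in the window, against 14.1% of all protein-coding genes. These were cct-1, cct-5, cct-6, cct-7 and cct-8, each with 1 site. In cct-2, cct-3 and cct-4 no summit of the list lay in the window. Replicate 2 alone gave the same 5 genes, against 12.5% of all genes, and replicate 1 alone gave 4, without cct-7, against 12.3%. Every one of the 5 sites lay in a gap between a CCT gene and a neighbour transcribed the other way, and every summit was nearer to the 5′ end of the neighbour than to that of the CCT gene. When each site was given only to the gene with the nearest 5′ end, none of the 8 CCT genes kept a site, against 10.6% of all protein-coding genes. To which of the paired genes a site belongs cannot be told apart from peak positions.

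The sequences of the 5 sites follow, because they hold a feature that the choice of genes did not use. Each run is the forward strand of the ce11 assembly, read 5′ to 3′ from the RefSeq copy of the genome, from 100 bp before to 100 bp after the summit. The cct-6 run stops at the 5′ end of its neighbour. Capitals mark a heat shock element unit, here TTCNNGAA or GAANNTTC. The runs span chrII:8185110-8185310 (cct-1), chrIII:4508463-4508663 (cct-5), chrIII:5855882-5856017 (cct-6), chrV:1871882-1872082 (cct-7) and chrIV:1094261-1094461 (cct-8).
cct-1: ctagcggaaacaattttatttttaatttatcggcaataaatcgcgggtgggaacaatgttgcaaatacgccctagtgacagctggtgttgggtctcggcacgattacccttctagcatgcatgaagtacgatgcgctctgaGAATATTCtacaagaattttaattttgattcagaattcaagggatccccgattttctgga
cct-5: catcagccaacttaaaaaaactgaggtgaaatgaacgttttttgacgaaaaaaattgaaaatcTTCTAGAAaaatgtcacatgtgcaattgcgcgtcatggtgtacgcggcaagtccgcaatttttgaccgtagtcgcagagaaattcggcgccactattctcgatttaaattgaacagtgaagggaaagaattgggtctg
cct-6: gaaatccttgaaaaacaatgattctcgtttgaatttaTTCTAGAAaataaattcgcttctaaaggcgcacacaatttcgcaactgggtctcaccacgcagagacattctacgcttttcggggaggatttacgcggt
cct-7: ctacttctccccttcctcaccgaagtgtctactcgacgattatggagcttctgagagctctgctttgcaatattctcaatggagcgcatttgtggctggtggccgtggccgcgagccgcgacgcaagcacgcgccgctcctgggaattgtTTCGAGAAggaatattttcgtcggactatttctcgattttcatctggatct
cct-8: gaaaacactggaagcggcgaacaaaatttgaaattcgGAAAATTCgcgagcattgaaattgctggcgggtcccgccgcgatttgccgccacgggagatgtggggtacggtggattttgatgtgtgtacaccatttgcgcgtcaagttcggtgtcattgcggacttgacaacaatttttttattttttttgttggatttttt

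The strongest CCT site was that of cct-8, which encodes the theta subunit. The gene lies on chromosome IV at 1087108 to 1093920 on the minus strand, and the peak spans 1094220 to 1094512 with its summit 441 bp upstream of the 5′ end. Its signal was 2663 in the list from both replicates, 1465 in replicate 1 and 1215 in replicate 2. It ranked 58 of 4530, 47 of 3763 and 63 of 3729 sites in these lists, so it stood near the top of all of them. The facing gene is Y55F3AR.2, whose 5′ end lies 180 bp from the summit, and a non-coding RNA gene, Y55F3AR.4, lies 152 bp from it.

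The site of cct-1, which encodes the alpha subunit, was close behind. The gene lies on chromosome II at 8185443 to 8187601 on the plus strand, and the peak spans 8185051 to 8185359. The summit is 233 bp upstream of cct-1 and 187 bp from the 5′ end of mig-5, which encodes a Dishevelled protein of Wnt signalling. The signal was 2537 in the list from both replicates, 1377 in replicate 1 and 1184 in replicate 2, at ranks 67, 61 and 67. The order of cct-8 before cct-1 was the same in the 3 lists, but their signals were close, and with 2 replicates no test of that order was made.

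The remaining sites were weaker. The site of cct-6, the zeta subunit gene (chromosome III, 5853530 to 5855687, minus strand), spans 5855861 to 5856073 and reaches past the 5′ end of alh-9, an aldehyde dehydrogenase gene, which lies 36 bp from the summit; that of cct-6 lies 295 bp away. Its signal was 541 in the list from both replicates, with 303 in replicate 1 and 244 in replicate 2. It ranked 1008, 973 and 1077, so the replicates placed it alike.

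The site of cct-7, which encodes the eta subunit, was the one on which the replicates differed. The gene lies on chromosome V at 1872246 to 1875505 on the plus strand, and the peak spans 1871782 to 1872181. In the list from both replicates its signal was 298 and its rank 2049. In replicate 2 it had 190 and rank 1444. In replicate 1 a peak at the same place had 110, at an irreproducible discovery rate (IDR) of 0.0956 in that replicate's own ranked list. It was not in the thresholded list of replicate 1. In the ranked list from both replicates the site had an IDR of 0.00023, below the largest rate of 0.00998 in the thresholded list from both replicates. The summit lies inside the small non-coding RNA gene T10B5.13, 264 bp upstream of cct-7 and 175 bp from the facing gene T10B5.4.

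The weakest in the list from both replicates was the site of cct-5, the epsilon subunit gene (chromosome III, 4499188 to 4508114, minus strand). Its peak spans 4508363 to 4508762, and the summit lies 449 bp upstream of cct-5 and 292 bp from the facing gene F25F2.1. The signal was 276 in the list from both replicates, 153 in replicate 1 and 139 in replicate 2. Ranks were 2203, 2207 and 2086, so cct-5 came below cct-8, cct-1 and cct-6 in both replicates. Its order against cct-7 differed between them. In replicate 1 the cct-7 peak, outside the thresholded list, was lower at 110, and in replicate 2 cct-7 was higher at 190.

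**Figure D1:**
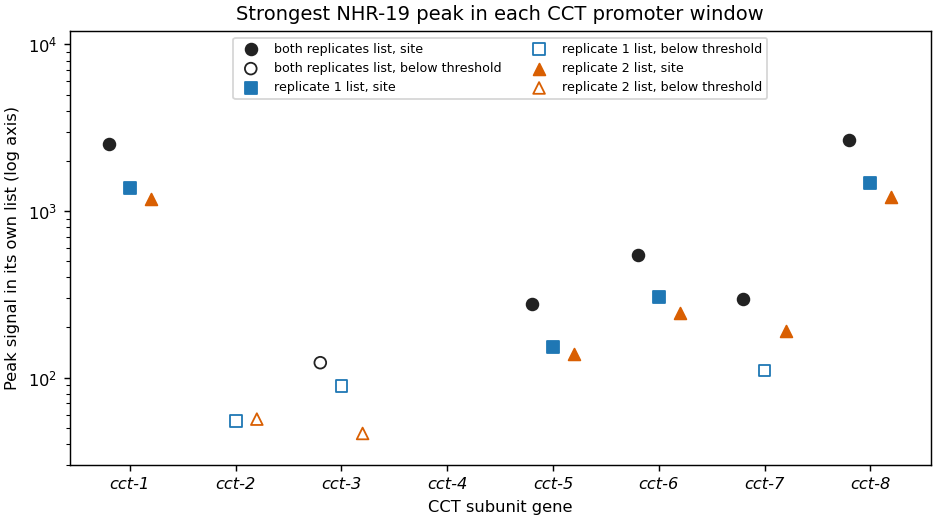
Signal of the strongest peak in each CCT promoter window (log axis), for the list from both replicates and for replicates 1 and 2, each on the scale of its own list. Filled markers are sites and open markers are candidates below the threshold; cct-8 and cct-1 stand above the other genes in every list, cct-7 is open in replicate 1, and cct-4 has no candidate in its window.

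Beside the whole list, the CCT sites reached from its middle to its top. The strongest signal was 9.65 times the weakest, on a signal scale that is not stated. Of all sites, 98.7% had a lower signal than the cct-8 site, 98.5% than cct-1, 77.7% than cct-6, 54.8% than cct-7 and 51.4% than cct-5. The median signal of the 5 sites was 541, against 268 for all sites and 320 for the 2210 promoter sites. In the list from both replicates all 5 were above the median of all sites, and 3 were above that of promoter sites. In the lists of single replicates cct-5 was in the lower part, with 41.4% of sites lower in replicate 1 and 44.1% in replicate 2, and cct-7 had 61.3% lower in replicate 2 and no site in replicate 1. The 250 strongest of the 4530 sites included 2 of the 5 CCT sites, cct-8 and cct-1. Peaks of 3 sites were narrower than the 400 bp at which 53.0% of all peaks stand, with 293 bp at cct-8, 309 bp at cct-1 and 213 bp at cct-6, while cct-5 and cct-7 had 400 bp.

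**Figure D2:**
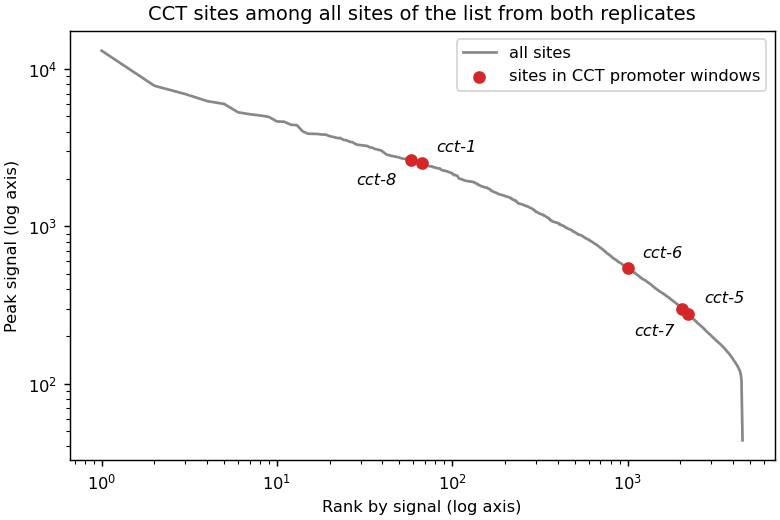
Signal against rank for the 4530 sites of the list from both replicates (both axes log), with the 5 sites in CCT promoter windows as red points. The cct-8 and cct-1 sites are at ranks 58 and 67, cct-6 is at 1008, and cct-7 and cct-5 are near the middle of the list.

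The promoter sites with the signals most like those of cct-8 over the 3 lists were the sites of ztf-7 (2679 in the list from both replicates, 1498 in replicate 1 and 1180 in replicate 2) and of cmtr-1 (2597, 1390 and 1209). Their distances from cct-8 were 0.05 and 0.08 on the log2 signal scale, among 1611 promoter sites found in both replicates. Nearest to cct-5 were the site shared by cox-6C and grld-1 (277 in the list from both replicates, distance 0.05) and that of vps-33.2 (287, distance 0.06). The list from both replicates is not independent of the replicates, so this likeness rests on 2 measurements.

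In the genes without a site, the ranked list showed what lay below the threshold. For cct-3, which encodes the gamma subunit (chromosome II, 2233540 to 2243539, plus strand), a candidate 889 bp upstream reached a signal of 123 (IDR 0.225). That signal was above those of 194 sites of the list. Replicate 1 had 88.8 at this place (IDR 0.0411), and replicate 2 had 46.2 at 944 bp upstream (IDR 0.587). Its summit lies 181 bp from the 5′ end of F54A3.6, the gene on the far side of the gap. For cct-2, the beta subunit gene (chromosome II, 8927741 to 8929815, plus strand), no candidate of both replicates lay in the window. Replicate 1 had one of 54.8 at 314 bp upstream (IDR 0.0829), and replicate 2 had one of 56.3 at 204 bp downstream (IDR 0.645). These are at different places. For cct-4, the delta subunit gene (chromosome II, 8283667 to 8285711, plus strand), no ranked list held a candidate in the window, and the nearest in the list of both replicates lay 1207 bp downstream with 75.6 (IDR 0.373). Since depth is unknown, a weaker site in these windows may not have been detectable.

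The wider surroundings held few further sites. None of the 8 gene bodies contained a site, and cct-3 and cct-4 had none within 5000 bp of the gene. The strongest one nearby lay 3455 bp upstream of cct-7 with a signal of 1062, at 422 bp from the 5′ end of knl-3. Beyond the 3′ end of cct-6 a site of 109 lay 161 bp from the 5′ end of ddx-23. A site of 132 lay beyond the 3′ end of cct-2, and sites of 332 and 197 lay beyond that of cct-5.

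All 5 summits were upstream of the CCT gene, by 233 to 449 bp with a median of 295 bp. Over all genes with a site, the strongest site lay upstream in 91.5%, with a median of 221 bp and a middle range of 118 to 417 bp. Many C. elegans transcripts are trans-spliced, which removes the first part of the transcript, so the annotated 5′ end can lie downstream of the place where transcription starts. The gap between the 5′ ends of the paired genes was 331 bp at cct-6, 420 bp at cct-1, 439 bp at cct-7, 621 bp at cct-8 and 741 bp at cct-5. Sharing is common in this genome. Of the 2810 genes with a site, 48.0% had a strongest site that also lay in the window of another protein-coding gene, beside 5 of 5 CCT genes. In 24.6% of the 2810 another gene of that site was nearer, which is possible only where the site is shared. Among the 1350 genes with a shared strongest site, another gene was nearer at 691, beside 5 of 5 CCT genes.

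A facing neighbour within 1000 bp was present at 6 of the 8 CCT genes. Of these 6, 5 had a site, against 31.4% of the 3539 protein-coding genes with such a neighbour, a background chosen after the data were seen. The exception was cct-4, whose 5′ end lies 459 bp from that of nst-1, the nucleostemin gene, a gap within the range of those that held a site. The gaps of cct-3 and cct-2, to F54A3.6 and B0457.2, were longer, at 1070 and 1190 bp.

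**Figure D3:**
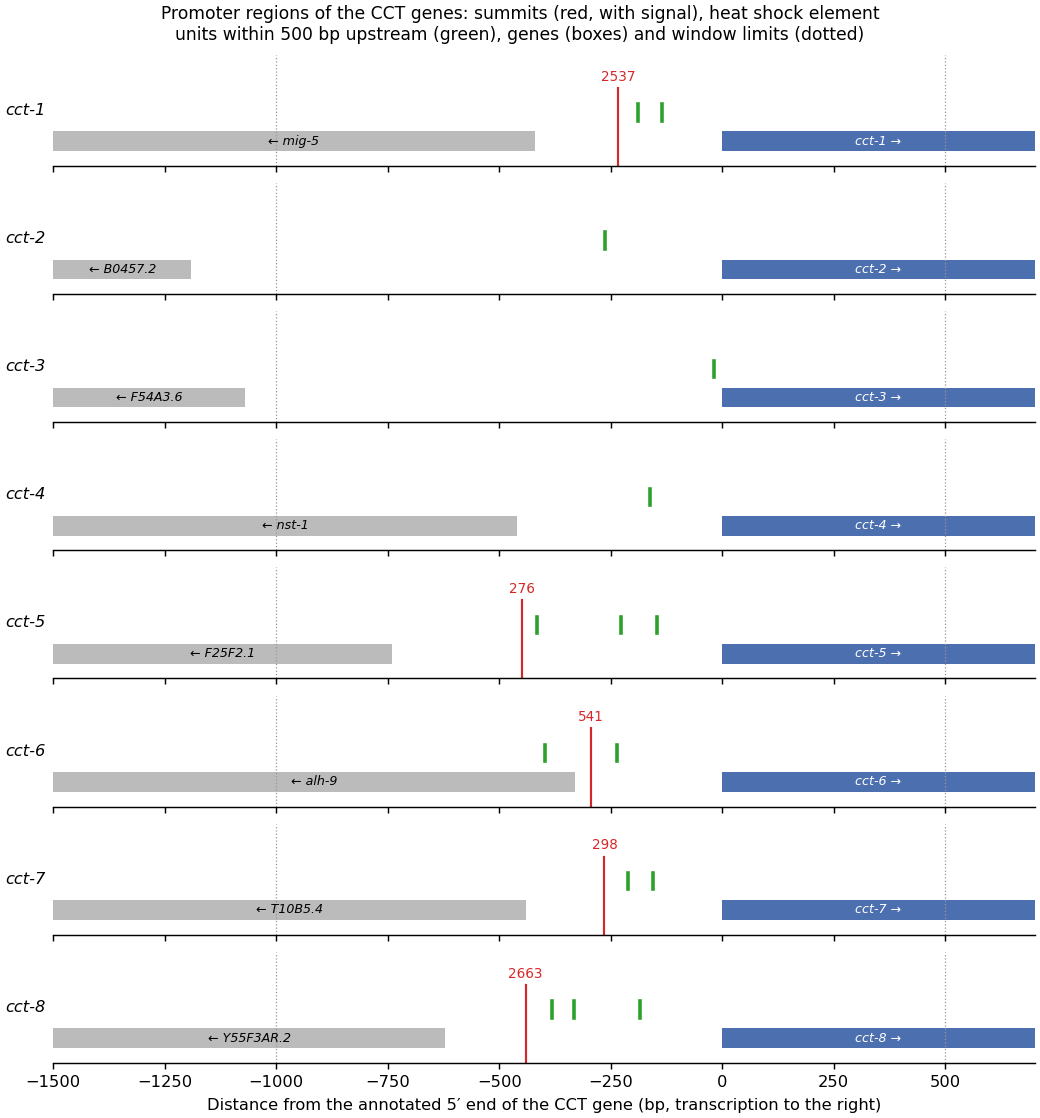
Map of the 8 CCT promoter regions, with distance from the annotated 5′ end of the CCT gene in bp and its transcription to the right. Red lines are summits with their signal in the list from both replicates, and green ticks are heat shock element units in the 500 bp upstream. Grey boxes are neighbouring protein-coding genes and dotted lines are the window limits. The 5 summits lie in gaps between divergent protein-coding genes, and cct-2, cct-3 and cct-4 have a unit but no summit. Non-coding RNA genes are not drawn, among them T10B5.13, which holds the cct-7 summit, and Y55F3AR.4 near cct-8.

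The heat shock element is the sequence to which the heat shock factor HSF-1 binds, as a row of inverted GAA triplets, and chaperone genes are its classical targets. The window set at the outset was 50 bp on either side of the summit. A pair of such triplets, TTCNNGAA or GAANNTTC, lay wholly within it at 2 of the 5 CCT sites, cct-1 and cct-5. The same was true of 6.67% of all sites and 6.65% of promoter sites. Within 100 bp, the wider window, a pair was at 5 of 5, once at each, as the capitals in the sequences above show. In that window it was at 15.4% of all sites and 17.3% of promoter sites. The letters closest to the summit lay 30 bp from it at cct-5, 41 bp at cct-1, 50 bp at cct-7 and 56 bp at both cct-6 and cct-8. All 5 units lay on the side of the CCT gene, between summit and 5′ end. The unit reads TTCTAGAA at both cct-5 and cct-6, TTCGAGAA at cct-7, GAAAATTC at cct-8 and GAATATTC at cct-1. A row of 3 triplets with the same spacing was at none of the 5, and at 1.17% of all sites. A match is a description of the letters, and HSF-1 was not measured in these worms.

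The CCT genes without a site held the unit as well. In the 500 bp upstream of the 5′ end, a window chosen after the data were seen, a unit was present at 8 of 8 CCT genes. Of all protein-coding genes 48.3% had one there, as had 47.7% of the genes with a site and 49.6% of those with a facing neighbour. At the 5 CCT genes with a site, this window also holds the units already counted within 100 bp of the summits. Only cct-2, cct-3 and cct-4 add to that earlier count, so the 8 of 8 is not independent of it. The genes without a site, cct-2, cct-3 and cct-4, had 1 unit each, and those with a site had 2 or 3. At cct-6 the unit 395 bp upstream lies inside alh-9, past the shared gap of 331 bp. The share of all genes by number of units is not given, and whether that number goes with having a site was not tested. The runs below, from chrII:8927459-8927498 (cct-2), chrII:2233502-2233539 (cct-3) and chrII:8283485-8283524 (cct-4) on the forward strand of ce11, show the unit of each in capitals, 259, 15 and 159 bp upstream of the gene.
cct-2: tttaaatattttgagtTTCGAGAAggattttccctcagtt
cct-3: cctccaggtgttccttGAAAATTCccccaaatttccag
cct-4: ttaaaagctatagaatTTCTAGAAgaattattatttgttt
The same 8 letters thus stood at promoters with a site and without one: TTCTAGAA at cct-5, cct-6 and cct-4, TTCGAGAA at cct-7 and cct-2, and GAAAATTC at cct-8 and cct-3.

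Other words were looked for at the same summits. Searched on both strands within 50 bp, the nuclear receptor half-site (AGGTCA or the variants GGGTCA and AGTTCA and also GGTTCA) was at none of the 5, against 13.7% of all sites, and at none within 100 bp, against 25.3%. GAGAGA was at none, against 25.9% of all sites, and neither were CACGTG (7.75% of all sites), CCGCCC (5.63%), the E2F-like GCGGGAA (2.16%), the GATA-type TGATAA (8.87%) or CCAAT (16.0%). Within 100 bp CCAAT was at 2 of 5, cct-5 and cct-6, against 30.8% of all sites. With 5 sites, an absence at such shares says little. The word GGGTCTC, picked after the sequences had been read, lay 5 bp from the cct-1 summit and 10 bp from the cct-6 summit. It was within 50 bp of 3.33% of all sites and 4.84% of promoter sites. In the whole promoter window it was at 5 of the 8 CCT genes, cct-1 and cct-6 and the 3 without a site, against 10.3% of all protein-coding genes. It was not in that window at cct-5, cct-7 or cct-8, which have a site. Because of how the word was picked, its matches at cct-1 and cct-6 are not an independent result. The matches at cct-2, cct-3 and cct-4 come from a window that was not set at the outset for words, and they were not tested. The GC content within 50 bp of the summit was 60.4% at cct-7, 56.4% at cct-8, 47.5% at cct-1 and cct-6 and 43.6% at cct-5, where all sites had a median of 45.5%.

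Genes that work with the chaperonin were looked at in the same windows, against the 14.1% of all protein-coding genes. Of the prefoldin genes, 5 of 6 had a site. That of pfd-1 was the third strongest of the list at 6943, in a window shared with F01G4.6. It was followed by pfd-6 (948, shared with rde-2), pfd-5 (525, shared with exos-9), pfd-3 (382) and pfd-4 (321, shared with B0035.3 and B0035.22), and pfd-2 had none. Prefoldin therefore had 1 site above the strongest CCT site, and 4 in the range between cct-5 and cct-1.

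Of 12 genes of the HSP70 and HSP90 system, 7 had a site, with a median signal of 1502. The highest were dnj-13, an HSP40 co-chaperone gene, at 1819 and hsp-110, a nucleotide exchange factor gene of HSP70, at 1813. The dnj-13 site was shared with F54D5.9 and the hsp-110 site with rpn-3. The constitutive HSP70 gene hsp-1 had 1769. No site was found at hsp-90, at its co-chaperone genes cdc-37 and unc-45, at chn-1 or at hsf-1 itself. The gene of the mitochondrial chaperonin, hsp-60, had a site of 2804, in a window shared with Y22D7AL.10.

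Actin and tubulin are the main proteins that CCT folds. Of 20 actin and tubulin genes, 7 had a site, with a median signal of 365 and a range of 233 to 1475. The highest were tba-2, an alpha tubulin gene, at 1475 and act-1, an actin gene, at 568. None of the 6 beta tubulin genes examined had one.

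**Figure D4:**
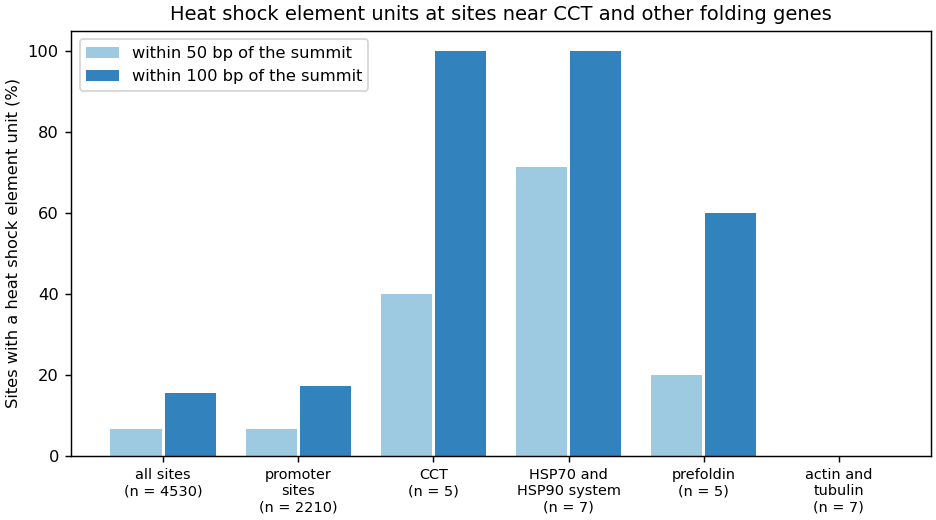
Share of sites with a heat shock element unit within 50 bp (light bars) and 100 bp (dark bars) of the summit, for all sites, promoter sites and the genes with a site in each list of folding genes. Within 50 bp, the window set at the outset, a unit is at 2 of 5 CCT sites, beside 6.67% of all sites. Within 100 bp CCT and the HSP70 and HSP90 system reach 100%, beside 15.4% of all sites. Actin and tubulin stay at 0 in both windows, and the lists hold 5 to 7 genes with a site each.

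The unit was also frequent at sites of other chaperone genes. Within 50 bp of the summit it was at 5 of 7 sites of the HSP70 and HSP90 system, at 1 of 5 prefoldin sites and at 0 of 7 actin and tubulin sites. Within 100 bp these counts were 7 of 7, 3 of 5 and 0 of 7. In the wider window a row of 3 triplets was at 3 of the 7 HSP70 and HSP90 sites, beside 1.17% of all sites. These were the sites of hsp-110, dnj-12 and bag-1. Within 50 bp such a row was at 1 of the 7, that of hsp-110, beside 0.397% of all sites. The hsp-60 site had no unit within 50 bp and a row of 3 triplets within 100 bp. Over the whole list the share with a unit differed little with signal, and no test of this was made. The sites were ranked by signal and split into 4 groups of like size. Within 100 bp of the summit a unit lay at 16.0, 15.7, 15.3 and 14.7% of the groups, from the strongest to the weakest. Within 50 bp, the window set at the outset, it lay at 6.35, 6.36, 7.16 and 6.80%, so the 2 windows did not give the same order. Among the 250 strongest sites it was at 17.6% within 100 bp and at 9.2% within 50 bp, beside 15.4 and 6.67% of all sites.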

How the data were processed

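The deposited files are peak lists on ce11, per the deposited file descriptions: a thresholded and a ranked list for each of the 2 replicates, and such lists for the series. Which aligner, peak caller and control were used is not given in the sources used here. Deposited peak signal has no stated scale, and ranked peaks also have a −log10 global IDR, as the authors deposited it; its smallest rate is 1e-05. The 16 columns on single replicates without a sample name were not used, and replicate values come from each replicate's own lists.

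Summits were assigned to Ensembl release 115 genes, and no peak ran past a chromosome end of that build. A replicate peak within 200 bp of a summit counted as the same site. Python 3.11.15, pandas 2.3.3 and pysam 0.24.0 were used, and the assignment was checked on planted sites. Alternatives changed the list, replicates, threshold, window, 5′ end, merging and summit window. Words were sought on both strands, and overlapping matches were kept. The CCT genes and the other lists were chosen with earlier results of these data known, so counts are set beside the share of all genes and no list was tested. Named genes are all members, every gene sharing their sites, the most alike promoter sites, all prefoldin genes and the 2 strongest of each other list; further genes of those lists and the genes near sites outside the windows were named after their values were seen.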

Additional observations from a re-analysis of the deposited data

How the results depend on the processing

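The count of CCT genes with a site was 5 in the list from pooled pseudoreplicates, the strongest 50% of sites, an IDR of 0.05 or less, 2000 or 500 bp upstream, any transcript 5′ end and unmerged summits. The share of all protein-coding genes with a site, 14.1% in the main setting, moved with these choices. Among them it was lowest for the strongest 50% of sites, then with 500 bp upstream, and highest with 2000 bp upstream. An unchanged 5 is therefore not the same result in each setting. The CCT count was 4 to 5 with 1 replicate left out, beside 12.3 and 12.5% of all genes. It was 0 with each site given only to the gene of nearest 5′ end, beside 10.6%, because every CCT summit lies nearer to its neighbour. The median share of sites with a lower signal, 77.7%, ranged from 71.1 to 86.3% when 1 replicate was left out, the higher value over 4 sites because cct-7 has none in replicate 1, and was 72.0% among promoter sites only. The number of sites in both replicates stayed at 4 with 100 or 500 bp, and neighbours were nearer at 5 with transcript ends. Sites with any of the words listed at the outset were 2 within 50 bp and 5 within 100 bp, the wider window. The heat shock element unit alone gave the same 2 and 5, beside 6.67 and 15.4% of all sites. The share of all sites with any of the words is not given, so the joint counts have no background. The prefoldin, HSP70 and HSP90, actin and tubulin, and mitochondrial chaperonin counts, recomputed by choices made after the data were seen, moved by at most 1 gene.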
